A study of Manihot esculenta with 9 samples.

Results

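The genes described here act in DNA methylation and in silencing by small RNAs. They were chosen by the words of their descriptions in the deposited table, which name DNA methyltransferases and chromomethylases, demethylases, methyl-CpG-binding proteins, argonautes, dicers, RNA-dependent RNA polymerases, nuclear RNA polymerase subunits, XH/XS proteins and silencing factors. The rule found 64 genes among 33033, and 59 of them passed the filter on low counts. The samples were leaves of cassava (Manihot esculenta) plants grown for 2 months from stem cuttings in sterile bottles, without treatment. There were 3 groups of 3 RNA sequencing libraries: wild type (WT) and the transgenic lines HOE1 and HOE8, which overexpress MeH1.2, a linker histone that binds DNA between nucleosomes. The sources used here do not give the promoter of the transgene, the number of plants behind a library or the time of day of collection, nor the genome build of the coordinates below. Each line is 1 transgenic line, so a difference between lines cannot be told apart from a difference between insertion events, and p-values measure only the spread between libraries, which may be technical.

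In plants, methyl groups are placed on cytosines in CG, CHG and CHH contexts, where H is any base but G. MET1 copies CG methylation after replication, chromomethylases (CMT) act on CHG and CHH sites in chromatin marked by histone H3 lysine methylation, and DRM enzymes are guided to their sites by small RNAs. In that guided pathway, RNA polymerase IV and RDR2 make paired RNA, DCL3 cuts it, and the small RNA in AGO4 meets transcripts of RNA polymerase V. DNA glycosylases of the ROS1 and DEMETER family remove the mark. A related set, with DCL1, DCL2, DCL4, RDR6, AGO1, AGO2 and AGO7, works on messenger and viral RNA. Gene names given here are those of the best Arabidopsis match in the deposited table, and roles are known from Arabidopsis.

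Library totals were 13272047 to 16378389 reads. Levels below are reads scaled to library size (CPM) after TMM scaling. Manes.08G136300, whose Arabidopsis match is H1.2 and which was taken as the overexpressed gene, measured 149 ± 7.9 CPM in WT, 4620 ± 110 in HOE1 and 3350 ± 260 in HOE8 (SD, n = 3). The leaf label was checked with mesophyll markers (small subunits of Rubisco, its activase and light-harvesting proteins). Their summed level was 4070 to 4600 FPKM (reads scaled to gene length and library size) in WT, 9830 to 10400 in HOE1 and 18200 to 20700 in HOE8. Not all went the same way: of 8 tested, 5 were higher and 1 lower in HOE1 than in WT, and 6 were higher and 1 lower in HOE8. Some light-harvesting matches varied widely within a group, which the sums hide. Manes.17G066900 had 385, 8232 and 8627 reads in the HOE8 libraries. Manes.17G066800 had 307, 15 and 342 reads in WT and 53, 1028 and 1033 in HOE1. The 4 root marker genes summed to at most 1.6 FPKM in any library. Of the 5 clock marker genes, 4 were higher in HOE1 than in WT, and 3 were higher and 1 lower in HOE8. GIGANTEA (Manes.18G095000) measured 480 ± 6.9 CPM in WT, 466 ± 5.2 in HOE1 and 1.05 ± 0.3 in HOE8, and the LHY match Manes.01G239000 measured 5.33 ± 0.5, 8.62 ± 0.25 and 1250 ± 160 CPM. The other LHY match, Manes.05G015600, measured 16.7 ± 1.4, 21.6 ± 1.6 and 1470 ± 220 CPM. The TOC1 matches differed less, at 55.6 ± 2.3, 98 ± 0.86 and 51.1 ± 4.1 CPM for Manes.14G081500 and 91.4 ± 3.2, 127 ± 1.8 and 121 ± 7.3 CPM for Manes.06G089800. These genes cycle over the day, so comparisons of both lines with WT hold differences in clock genes, and the part of these in the results was not tested. In whole leaves, fewer cells of a type and less RNA per cell cannot be told apart.

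The first HOE8 library differed from the other HOE8 libraries in a way that depended on gene length. Over all genes tested, its median log2 difference from the other HOE8 libraries was 0.21 for genes under 1 kilobase and -0.39 for genes over 6 kilobases. In WT and HOE1 libraries such differences lay between -0.03 and 0.04 in every length class. Silencing genes are long, with a median of 3364 bases for tested members against 1707 for all genes tested, and HOE8 library 1 was the lowest of its group for 35 of the 59 members. In the 7 members over 6 kilobases its median log2 difference was -0.48. Counts over all members that involve HOE8 are therefore given with and without this library, and members whose call against WT or between the lines depends on it are named with those counts.

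**Figure D1:**
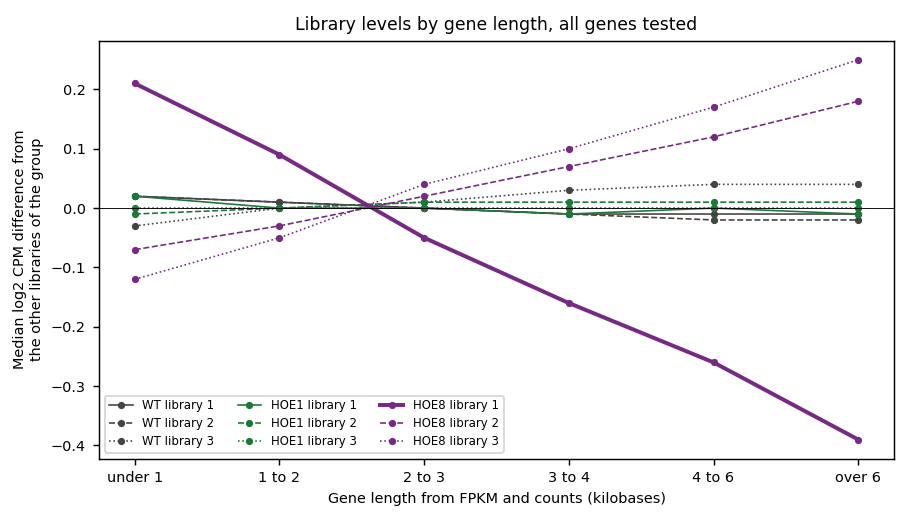
Median difference in log2 CPM between each library and the other libraries of its group (y axis), by gene length class in kilobases (x axis), over all genes tested. HOE8 library 1 (thick line) runs from 0.21 for the shortest genes to -0.39 for the longest, whereas the WT and HOE1 libraries stay between -0.03 and 0.04; lines of HOE8 libraries 2 and 3 mirror library 1 because it is part of their reference.

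HOE1 was compared with WT to see which transcripts differ in a line with raised linker histone. Among the 59 tested members, 26 were higher and 13 lower in HOE1 (edgeR quasi-likelihood test, Benjamini-Hochberg adjusted p under 0.05). Over all 23434 genes tested, 64.7% were called, 31.8% higher and 32.9% lower, against 66.1%, 44.1% and 22% of the members. Changes of the members were small: 1 was higher and 2 were lower by at least 2-fold, which is 5.08% of the members against 19.2% of all genes tested (8.48% higher and 10.7% lower). The median log2 fold change of the members was 0.21, and that of all genes tested was 0. With each of the 9 libraries left out in turn, 20 of the 26 higher calls and 10 of the 13 lower calls held every time. Since HOE8 libraries share the estimate of the spread, leaving out HOE8 library 1 added calls in HOE1 for Manes.02G024900, Manes.04G011400, Manes.04G159600, Manes.08G020500 and Manes.11G064000. Libraries of the groups did not overlap for 45 members, or for 73.3% of all genes tested.

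In HOE8 against WT, 23 members were higher and 18 lower, where 71.9% of all genes tested were called, 33.7% higher and 38.2% lower. These counts are 39% and 30.5% of the members. By at least 2-fold, 6 rose and 4 fell, 16.9% of the members against 31.8% of all genes tested (15.2% higher and 16.5% lower). Libraries of the groups did not overlap for 41 members, or for 73.7% of all genes tested. The median log2 fold change was 0.09 in the members and -0.05 in all genes tested. With each of the 9 libraries left out in turn, 19 of the 23 higher calls and 16 of the 18 lower calls held every time. Without HOE8 library 1, 24 were higher and 17 lower (34.5% and 38.9% of all genes tested), with 4 calls lost and 4 gained. The lost calls were those of the DRM2 match, the RDR2 match, the DCL2 match Manes.12G003000 and the methyl-CpG-binding gene Manes.05G071600. The gained calls were higher for the MBD13 match Manes.02G024900, the MBD8 match Manes.18G066500 and the polymerase III match Manes.17G000400, and lower for the ROS1 match Manes.08G020500.

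Between the lines, 19 members were higher and 19 lower in HOE8 than in HOE1, where 66.8% of all genes tested were called, 32.9% higher and 34% lower. Differences of at least 2-fold were found for 6 higher and 5 lower members, 18.6% against 25.6% of all genes tested (12.9% higher and 12.7% lower). Libraries of the lines did not overlap for 40 members, or for 70.1% of all genes tested. With each of the 9 libraries left out in turn, 16 of the 19 higher calls and 15 of the 19 lower calls held every time. Without library 1 the counts between the lines were 19 higher and 18 lower (33% and 34.5% of all genes tested), with 6 calls lost and 5 gained. The lost calls were those of Manes.02G132200, Manes.04G011400, Manes.04G103800, Manes.05G071600, Manes.12G003000 and Manes.13G065100. The gained calls were higher in HOE8 for Manes.16G129400 and Manes.18G066500, and lower for Manes.04G159600, Manes.11G064000 and Manes.17G113600. The share of members called was thus near the background in every comparison, and the account below turns on which members changed and how far.

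**Figure D2:**
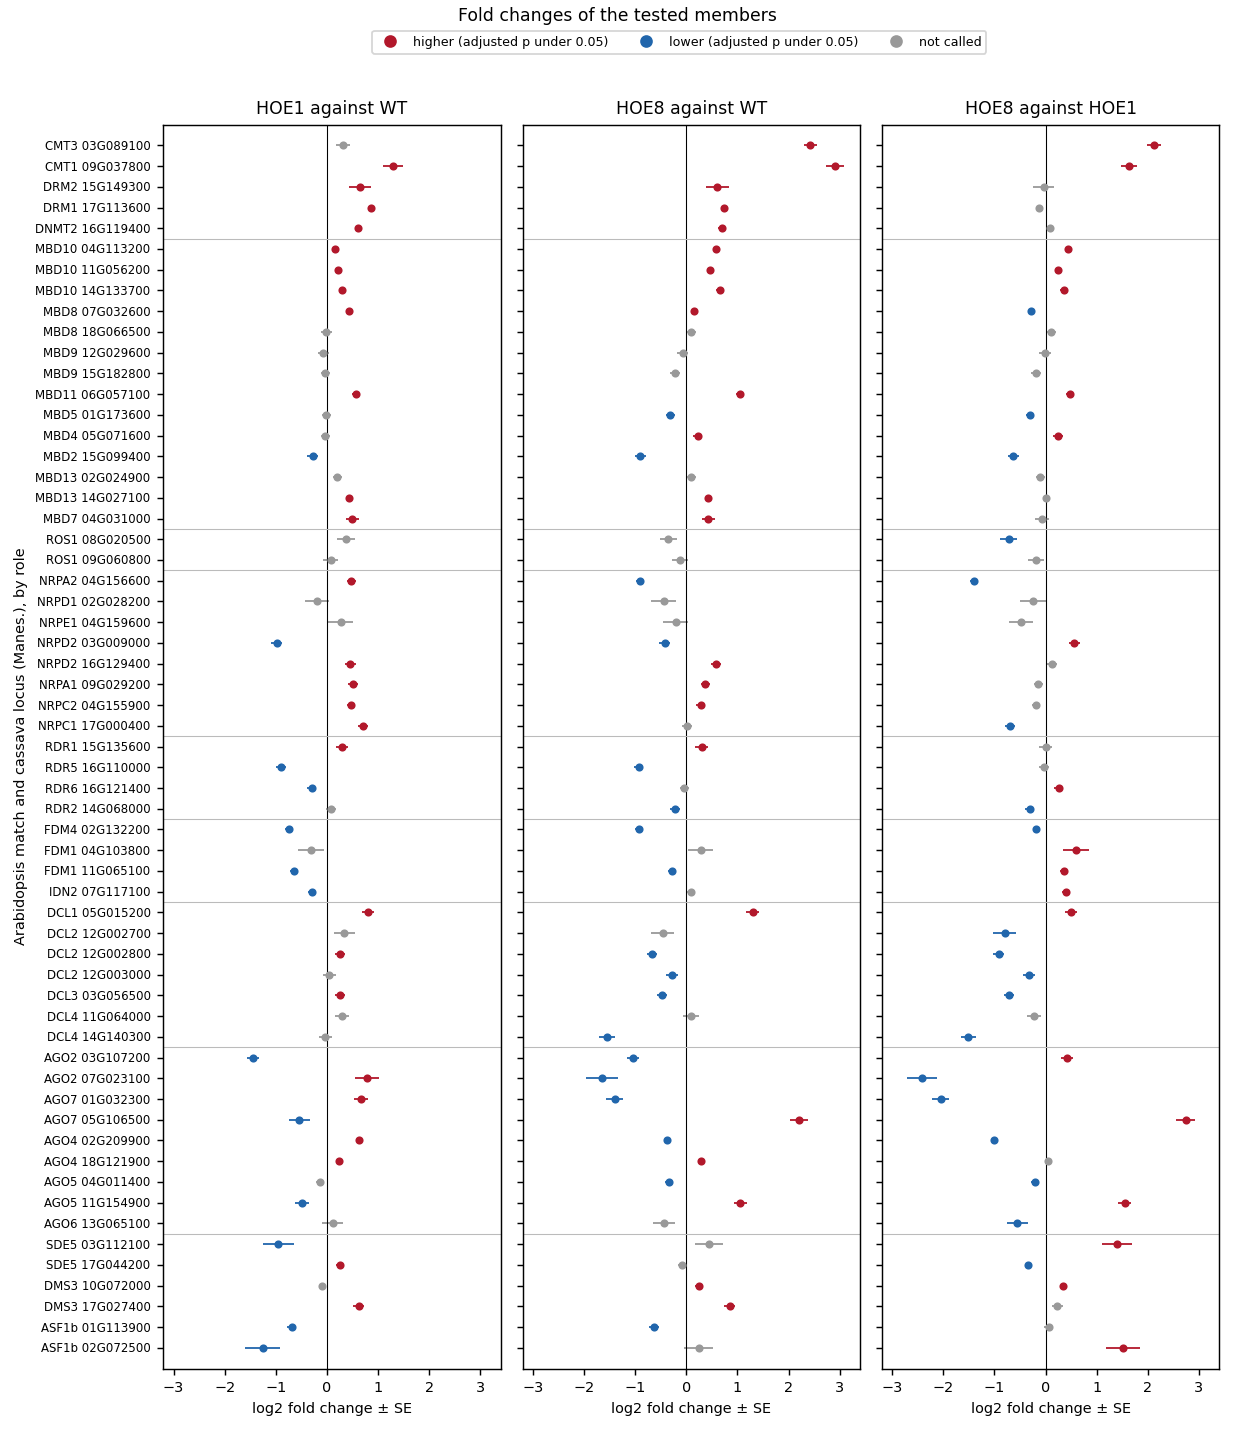
Log2 fold change with its standard error (x axis) for the 59 tested members (y axis, Arabidopsis match and cassava locus, grouped by role) in HOE1 against WT, HOE8 against WT and HOE8 against HOE1. The DNA methyltransferase matches lie right of 0 in HOE8 against WT, from 0.61 to 2.91, and the dicer and argonaute matches lie on both sides.

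Of the 5 DNA methyltransferase members, 4 were higher and 0 lower in HOE1, where 31.8% of all genes tested were higher, and 5 were higher and 0 lower in HOE8, where 33.7% were. The HOE8 count was 4 without library 1. The DRM2 calls were lost in both lines when some single libraries were left out, and the CMT3 match was not called in HOE1. In HOE8 the 2 chromomethylases had the largest changes of the class. Manes.03G089100, the CMT3 match (chromosome 3, 15025218 to 15036346), measured 3.09, 3.36 and 3.17 CPM in the WT libraries, 4.17, 3.54 and 4.27 in HOE1, and 16.5, 18.9 and 16.7 in HOE8. The HOE8 libraries stood well above the other 6, and the HOE1 libraries lay just above WT without overlap. The gene was 5.41-fold higher in HOE8 than in WT (log2 fold change 2.43 ± 0.13, SE, adjusted p = 6.8e-11) and 4.35-fold higher than in HOE1 (log2 fold change 2.12 ± 0.13, adjusted p = 4e-10). In HOE1 against WT the log2 fold change of 0.31 ± 0.14 was not called (adjusted p = 0.071), although it was called without HOE1 library 2 (adjusted p = 0.041).

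Manes.09G037800, the CMT1 match (chromosome 9, 5238371 to 5247323), had the largest fold change among members in HOE8 against WT. It measured 1.85, 1.68 and 1.35 CPM in WT, 3.39, 3.67 and 4.79 in HOE1, with 11.5, 13.4 and 11.8 in HOE8. The 3 groups stepped upward without overlap. Its log2 fold change was 1.29 ± 0.19 in HOE1 (adjusted p = 2.7e-05), 2.91 ± 0.18 in HOE8 (adjusted p = 3.6e-10) and 1.63 ± 0.16 between the lines (adjusted p = 1.5e-07). Without HOE8 library 1 the values for HOE8 were 2.96 against WT for this gene and 2.47 for the CMT3 match. No gene had CMT2 as its best match.

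The DRM matches, by contrast, reached similar levels in the lines. Manes.17G113600, the DRM1 match (chromosome 17, 25432270 to 25441053), was the more abundant, at 45.1, 46.6 and 49.9 CPM in WT, 85.3, 84.9 and 88.5 in HOE1, with 83.9, 73 and 79.4 in HOE8. All 6 transgenic libraries lay above all WT libraries. Its log2 fold change was 0.87 ± 0.07 in HOE1 (adjusted p = 1.3e-08) and 0.74 ± 0.07 in HOE8 (adjusted p = 5e-08). The difference, HOE8 against HOE1, was -0.13 ± 0.06 (adjusted p = 0.088; -0.18 and adjusted p = 0.0085 without HOE8 library 1). Manes.15G149300, the DRM2 match (chromosome 15, 11698443 to 11711969), was sparse, at 1.47 to 1.58 CPM in WT, 2 to 2.9 in HOE1 and 2.13 to 2.57 in HOE8. It rose by 0.65 ± 0.22 in HOE1 (adjusted p = 0.016) and 0.61 ± 0.22 in HOE8 (adjusted p = 0.022). The HOE1 call was lost without HOE1 library 1 (adjusted p = 0.078), and the HOE8 call without HOE8 library 1 (adjusted p = 0.074) or WT library 3 (adjusted p = 0.061). Manes.16G119400 (chromosome 16, 27247960 to 27252649), described as DNA methyltransferase-2, belongs to a family whose known substrate is transfer RNA. It rose by 0.60 ± 0.06 in HOE1 (adjusted p = 7.3e-07) and 0.69 ± 0.06 in HOE8 (adjusted p = 8.4e-08).

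**Figure D3:**
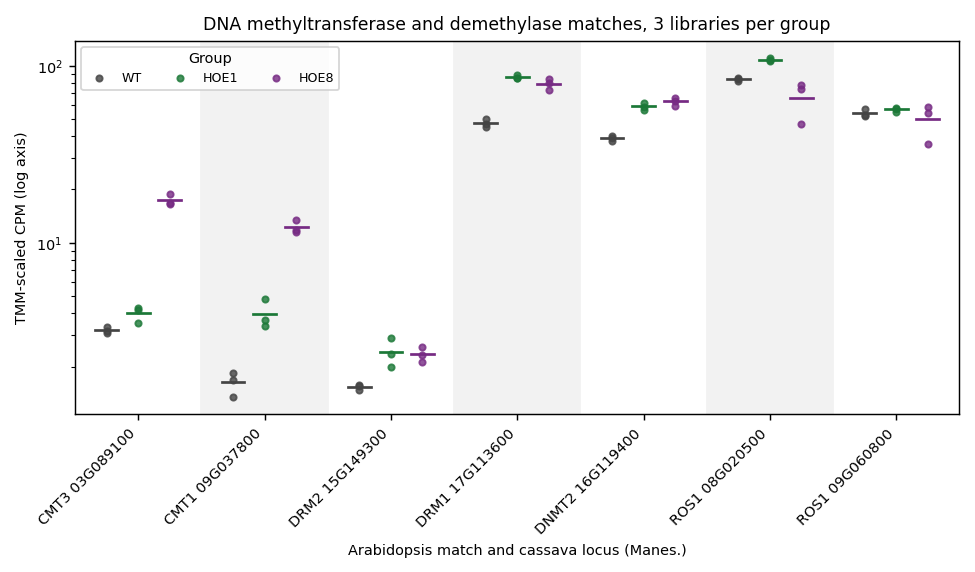
TMM-scaled CPM on a log axis (y) for the 5 DNA methyltransferase and 2 demethylase matches (x), with 1 point per library and a bar at the mean of each group (WT, HOE1, HOE8). The CMT3 match sits at 16.5 to 18.9 CPM in HOE8 against 3.09 to 4.27 in the other libraries; for both ROS1 matches the lowest HOE8 point is library 1.

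Markers of dividing cells and of the shoot meristem were also summed in each library. The 9 dividing-cell marker genes (B2-type cyclin-dependent kinases, PCNA, MCM proteins, TSO2 and KNOLLE matches) summed to 19.5 to 20.3 FPKM in WT, 17.2 to 19.5 in HOE1 and 54.7 to 66.2 in HOE8. All 9 were higher in HOE8 than in WT and than in HOE1, where 33.7% and 32.9% of all genes tested were. In HOE1 against WT, 4 were higher and 1 lower, where 31.8% and 32.9% of all genes tested were. Manes.18G001200, Manes.08G147400 and Manes.09G144500 passed the filter on low counts only through HOE8, where they are high. Calls of these genes are therefore given as a description only. The 9 shoot meristem marker genes, of which 5 were tested, summed to 5.24 to 5.61, 16.5 to 18.1 and 29.3 to 30.6 FPKM. All 5 tested were higher in each line than in WT, where 31.8% of all genes tested were higher in HOE1 and 33.7% in HOE8. Of these, Manes.17G027300 passed the filter on low counts only through HOE8, so its calls are a description only. Genes with low counts were not tested. The CLAVATA3 match had 0 reads in every library, and the WUSCHEL matches Manes.02G104000 and Manes.01G145500 had at most 2 in any. Both chromomethylase matches were called higher in HOE8 against WT, and only the CMT1 match was in HOE1. The part of such cells in the methyltransferase result was not tested.

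Methyl-CpG-binding proteins read the mark or carry its fold without reading it. Of 14 members, 7 were higher and 1 lower in HOE1, where 31.8% of all genes tested were higher and 32.9% lower. In HOE8, where 33.7% were higher and 38.2% lower, 8 were higher and 2 lower (9 and 2 without HOE8 library 1). With each of the 9 libraries left out in turn, the HOE8 call of the MBD8 match Manes.07G032600 was lost 6 times. Its log2 fold change was 0.15 ± 0.06 (adjusted p = 0.035, up to 0.16). That of Manes.05G071600 (0.22 ± 0.09, adjusted p = 0.048, up to 0.3) was lost 7 times. The 3 MBD10 matches rose in both lines, and 2 of them had the highest mean FPKM of all members. Manes.14G133700 (chromosome 14, 11908177 to 11913842) measured 150, 157 and 159 CPM in WT, 191, 176 and 207 in HOE1, with 261, 228 and 246 in HOE8, a stepwise order without overlap. Its log2 fold change was 0.30 ± 0.07 in HOE1 (adjusted p = 0.00094), 0.66 ± 0.07 in HOE8 (adjusted p = 2.2e-07) and 0.36 ± 0.07 between the lines (adjusted p = 0.00019). Per length, its mean level over all libraries was 125 FPKM. Manes.04G113200 and Manes.11G056200 rose by 0.59 ± 0.06 and 0.46 ± 0.06 in HOE8. In HOE1 they rose by 0.16 ± 0.06 and 0.21 ± 0.06, and the first of these calls was lost without WT library 1 or 2 or HOE1 library 2 or 3 (adjusted p up to 0.11).

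The MBD11 match had the largest change against WT in the class. Manes.06G057100 (chromosome 6, 16217928 to 16225035) measured 27.8, 30.5 and 29.1 CPM in WT, 42.7, 43.8 and 43.4 in HOE1, with 57.5, 59.2 and 63.8 in HOE8. The log2 fold change was 0.57 ± 0.07 in HOE1 (adjusted p = 1.8e-06) and 1.05 ± 0.07 in HOE8 (adjusted p = 7.2e-10). MBD7, which in Arabidopsis binds methylated DNA and helps demethylation, has the match Manes.04G031000, at 6.16 to 6.52 CPM in WT and 8.52 to 9.57 in HOE1. It rose by 0.50 ± 0.13 in HOE1 (adjusted p = 0.0038) and 0.43 ± 0.13 in HOE8 (adjusted p = 0.0096). In the other direction, Manes.15G099400, the MBD2 match, measured 13.8, 15.8 and 17.3 CPM in WT, 12.7, 12.6 and 13.5 in HOE1, with 8.32, 9.07 and 7.7 in HOE8. It fell by 0.90 ± 0.11 in HOE8 (adjusted p = 2.6e-06). Its HOE1 log2 fold change of -0.28 ± 0.11 (adjusted p = 0.035) lost its call without WT library 2 or 3 or any 1 HOE1 library (adjusted p up to 0.17). The MBD5 match Manes.01G173600 was lower in HOE8 (log2 fold change -0.31 ± 0.08, adjusted p = 0.002), with 27 to 27.3 CPM in WT and 21.5 to 22.4 in HOE8. The MBD9 matches, which exceed 7 kilobases, were not called in any comparison with all libraries. For Manes.15G182800 a lower call in HOE8 was gained without HOE8 library 2 (adjusted p = 0.01) or 3 (adjusted p = 0.043).

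Demethylase matches by the rule were 2 genes matched to ROS1. Manes.08G020500 (chromosome 8, 1894551 to 1905908) measured 85.7, 81.7 and 83.8 CPM in WT, 106, 111 and 108 in HOE1, with 46.7, 73.5 and 77.5 in HOE8. HOE8 library 1 lay far below the other HOE8 libraries, at a gene length of 6166 bases. The libraries of each line did not overlap with WT, but with all libraries neither line was called against WT (log2 fold change 0.37, adjusted p = 0.085 in HOE1, and -0.35, adjusted p = 0.099 in HOE8), and HOE8 was below HOE1 (-0.72 ± 0.17, adjusted p = 0.0059). Without HOE8 library 1, the same gene was higher in HOE1 (0.37, adjusted p = 3.1e-08) and lower in HOE8 (-0.15, adjusted p = 0.0099), and the difference between lines was -0.52 (adjusted p = 7.8e-10). Leaving out HOE8 library 3 also gave a call in HOE8 (adjusted p = 0.04). Manes.09G060800 (chromosome 9, 8115713 to 8127263), at 51.8 to 57.3 CPM in WT, was not called in any comparison. With all libraries its adjusted p was 0.7 in HOE1 and 0.5 in HOE8.

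The term nuclear RNA polymerase gathered 8 genes, of which 4 match subunits of the silencing polymerases IV and V. Manes.02G028200, the match of NRPD1, the largest subunit of polymerase IV, was sparse, at 5.01, 6.27 and 5.28 CPM in WT, 3.53, 5.71 and 5.24 in HOE1, with 2.42, 5.12 and 4.69 in HOE8. The groups overlapped and no comparison was called. Manes.04G159600, the match of NRPE1, the largest subunit of polymerase V (chromosome 4, 28156866 to 28174734), measured 22.5 to 25.5 CPM in WT, 28 to 31.2 in HOE1, and 12.6, 23.7 and 26.6 in HOE8. It was not called with all libraries (adjusted p = 0.35 in HOE1). Without HOE8 library 1, which shares the estimate of the spread, the HOE1 log2 fold change of 0.27 had an adjusted p of 0.0026. HOE8 then lay below HOE1 (-0.22, adjusted p = 0.028), a call also gained without HOE8 library 3 (adjusted p = 0.035).

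The second-largest subunit shared by polymerases IV and V, NRPD2, had a pair of matches that went opposite ways. Manes.16G129400 (chromosome 16, 28028749 to 28035336) measured 59, 57.8 and 55.7 CPM in WT, 83.1, 81.6 and 73 in HOE1, with 70.6, 91.5 and 96.2 in HOE8. It rose by 0.46 ± 0.10 in HOE1 (adjusted p = 0.00089) and 0.58 ± 0.10 in HOE8 (adjusted p = 0.00011). Manes.03G009000 (chromosome 3, 701525 to 709978) measured 18.7, 20.2 and 19.1 CPM in WT, 11.7, 8.79 and 8.92 in HOE1, with 14.1, 14.6 and 14.6 in HOE8. It fell by 0.98 ± 0.11 in HOE1 (adjusted p = 1.4e-06) and by 0.42 ± 0.11 in HOE8 (adjusted p = 0.0027). The share of Manes.16G129400 in their summed FPKM was 68.3% ± 1.2 in WT, 85.4% ± 1.7 in HOE1 and 81% ± 2.3 in HOE8, without overlap between WT and either line.

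The other 4 nuclear polymerase members are subunits of polymerases I and III, which transcribe ribosomal and transfer RNA genes and are not part of small RNA silencing. All 4 were higher in HOE1, with log2 fold changes of 0.47 to 0.70, and in HOE8 2 were higher and 1 lower (3 and 1 without HOE8 library 1). The lower one, Manes.04G156600, matches the second-largest subunit of polymerase I and overlaps Manes.04G156700. It rose by 0.48 ± 0.08 in HOE1 (adjusted p = 3.8e-05) and fell by 0.91 ± 0.08 in HOE8 (adjusted p = 2.3e-08). Without these 4, the histone chaperone ASF1b matches and the DNA methyltransferase-2 match, 52 tested members remained. Of these, 21 were higher and 11 lower in HOE1, and 20 were higher and 16 lower in HOE8. Both sets of counts stand against 31.8% higher and 32.9% lower in HOE1 over all genes tested, with 33.7% and 38.2% in HOE8.

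RNA-dependent RNA polymerases copy RNA into paired strands for dicers. Of 4 tested members, 1 was higher and 2 were lower in each line, and in HOE8 1 was higher and 1 lower without library 1. The shares of all genes tested were 31.8% higher and 32.9% lower in HOE1, with 33.7% and 38.2% in HOE8. Manes.14G068000, the RDR2 match of the polymerase IV pathway (chromosome 14, 5540260 to 5551203), measured 28.6, 29.5 and 27.9 CPM in WT, 30, 28.8 and 32.1 in HOE1, with 21, 24.7 and 27.9 in HOE8. Its log2 fold change in HOE8 of -0.22 ± 0.09 (adjusted p = 0.041) was lost when any 1 WT library, HOE1 library 1 or 3, or HOE8 library 1 or 2 was left out (adjusted p up to 0.18). Manes.16G121400, the RDR6 match that serves trans-acting small RNAs and transgene silencing (chromosome 16, 27368019 to 27373905), measured 34.6, 36.2 and 36.6 CPM in WT, 26.1, 31.8 and 29.3 in HOE1, with 31.2, 37.1 and 36.2 in HOE8. It fell by 0.30 ± 0.09 in HOE1 (adjusted p = 0.0061), and the HOE8 log2 fold change was -0.04 (adjusted p = 0.69).

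The RDR5 match carried the clearest change of the class. Manes.16G110000 (chromosome 16, 26523570 to 26547691), described as RNA-dependent RNA polymerase family protein, measured 28.7, 26.5 and 30.8 CPM in WT, 15.3, 16.3 and 14.7 in HOE1, with 13.9, 16.5 and 14.8 in HOE8. All 6 transgenic libraries lay below the WT libraries. It fell by 0.90 ± 0.09 in HOE1 (adjusted p = 5e-07) and by 0.93 ± 0.09 in HOE8 (adjusted p = 2.3e-07), with no call between the lines (-0.03 ± 0.10, adjusted p = 0.78). Manes.15G135600, the RDR1 match linked to viral defence, measured 11.9 to 13.5 CPM in WT, 15 to 16.7 in HOE1 and 13.5 to 19.2 in HOE8. Its log2 fold change of 0.30 ± 0.12 in each line (adjusted p = 0.041 in HOE1 and 0.037 in HOE8) lost its call without any 1 WT library or HOE1 library 1. The same held for the HOE1 call without HOE1 library 3 and for the HOE8 call without HOE8 library 2 (adjusted p up to 0.14 in HOE1 and 0.25 in HOE8). A second RDR1 match, Manes.17G084800, had at most 3 reads in any library and was not tested.

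XH/XS proteins bind paired RNA and help polymerase V transcripts to direct methylation. Of 4 tested members, 3 were lower and 0 higher in HOE1, where 32.9% of all genes tested were lower and 31.8% higher. In HOE8, where 38.2% were lower and 33.7% higher, 2 were lower and 0 higher, also without library 1. Manes.02G132200, the FDM4 match (chromosome 2, 9701046 to 9708412), measured 50, 49.3 and 49.2 CPM in WT, 29.1, 29.8 and 29.4 in HOE1, with 23.8, 25.4 and 28.5 in HOE8. It fell by 0.75 ± 0.07 in HOE1 (adjusted p = 2.1e-07) and by 0.93 ± 0.07 in HOE8 (adjusted p = 1e-08). Manes.11G065100, the main FDM1 match (chromosome 11, 6660536 to 6669150), measured 59.5, 52.9 and 54.7 CPM in WT, 35.9, 39.1 and 32 in HOE1, with 47, 43.2 and 47.5 in HOE8. It fell by 0.64 ± 0.08 in HOE1 (adjusted p = 3.5e-06) and by 0.28 ± 0.08 in HOE8 (adjusted p = 0.0051), and HOE8 lay above HOE1 (0.36 ± 0.08, adjusted p = 0.00085). Manes.07G117100, the IDN2 match, fell by 0.29 ± 0.08 in HOE1 (adjusted p = 0.0039), and in HOE8 its log2 fold change was 0.10 (adjusted p = 0.23). The remaining FDM1 matches form a cluster on chromosome 4 between 23980578 and 23996176. Of these, Manes.04G103800 had 1.65 to 3.17 CPM in WT, and Manes.04G103900 and Manes.04G104000 were not tested, with at most 16 reads over the libraries of a group.

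Dicers went different ways in HOE8. Of 7 tested members, 3 were higher and 0 lower in HOE1, where 31.8% of all genes tested were higher and 32.9% lower. In HOE8, where 33.7% were higher and 38.2% lower, 1 was higher and 4 were lower (3 lower without library 1). Between the lines, 1 was higher and 5 lower in HOE8, with the same counts without library 1. Of all genes tested, 32.9% were higher and 34% lower in that comparison. The one that rose was Manes.05G015200, the match of DCL1, which cuts microRNA precursors (chromosome 5, 1068181 to 1080594). It measured 73, 60.6 and 70.7 CPM in WT, 121, 117 and 118 in HOE1, with 133, 180 and 191 in HOE8, in a stepwise order without overlap. The log2 fold change was 0.80 ± 0.12 in HOE1 (adjusted p = 0.00029) and 1.3 ± 0.13 in HOE8 (adjusted p = 6e-06). Without library 1 the HOE8 value was 1.45 (adjusted p = 1.7e-13). HOE8 exceeded HOE1 by 0.50 ± 0.12 (adjusted p = 0.0048).

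Of the other dicers, 4 of 6 were lower in HOE8. Manes.03G056500, the match of DCL3, which makes the small RNAs that guide methylation (chromosome 3, 5171977 to 5188196), measured 39.2, 34.7 and 34.2 CPM in WT, 41.3, 43 and 43.8 in HOE1, with 21.9, 25.4 and 30.5 in HOE8. It fell by 0.47 ± 0.10 in HOE8 (adjusted p = 0.00058; log2 fold change -0.36, adjusted p = 0.0003 without library 1). Its HOE1 log2 fold change of 0.25 ± 0.10 (adjusted p = 0.036) lost its call without WT library 2 or 3 or any 1 HOE1 library (adjusted p up to 0.12). Manes.14G140300, the longer of 2 DCL4 matches (chromosome 14, 12577461 to 12585122), measured 13, 13.4 and 13.3 CPM in WT, 13.8, 11.1 and 13.8 in HOE1, with 3.63, 4.19 and 5.72 in HOE8. WT and HOE1 overlapped and all HOE8 libraries lay far below them. It fell by 1.55 ± 0.15 in HOE8 (adjusted p = 1.4e-07), and was not called in HOE1 (-0.03 ± 0.13, adjusted p = 0.83). The difference between the lines was -1.51 ± 0.15 (adjusted p = 2.6e-07). DCL4 makes trans-acting and antiviral small RNAs in Arabidopsis. The other DCL4 match, Manes.11G064000, has a gene length of 1308 bases in the table against 2982 for the first. It measured 8.86 to 10 CPM in WT, 10.7 to 13.5 in HOE1 and 7.91 to 11.9 in HOE8, with no call in any comparison when all libraries were used. It was called in HOE1 against WT without HOE8 library 1 (adjusted p = 0.032) or 2 (adjusted p = 0.042), and between the lines without HOE8 library 1 (adjusted p = 0.03).

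The 3 DCL2 matches lie next to each other on chromosome 12, between 354244 and 423222, and as neighbouring copies they may have shared reads. DCL2 acts with DCL4 on viral and transgene RNA. Manes.12G002800 measured 21.2, 22.6 and 21.5 CPM in WT, 24.6, 26.9 and 26.4 in HOE1, with 11.5, 14.1 and 15.5 in HOE8. It fell by 0.67 ± 0.10 in HOE8 (adjusted p = 2.4e-05). Its HOE1 log2 fold change of 0.25 ± 0.10 (adjusted p = 0.033) lost its call without WT library 1 or 3 or HOE1 library 2 or 3 (adjusted p up to 0.1). The difference between the lines was -0.92 ± 0.10 (adjusted p = 8.4e-07). Manes.12G002700 was lower in HOE8 than in HOE1 (-0.80 ± 0.22, adjusted p = 0.0043). Manes.12G003000 was lower in HOE8 than in WT by a margin that did not hold with 7 of the 9 libraries left out in turn (log2 fold change -0.28 ± 0.12, adjusted p = 0.044, up to 0.14).

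**Figure D4:**
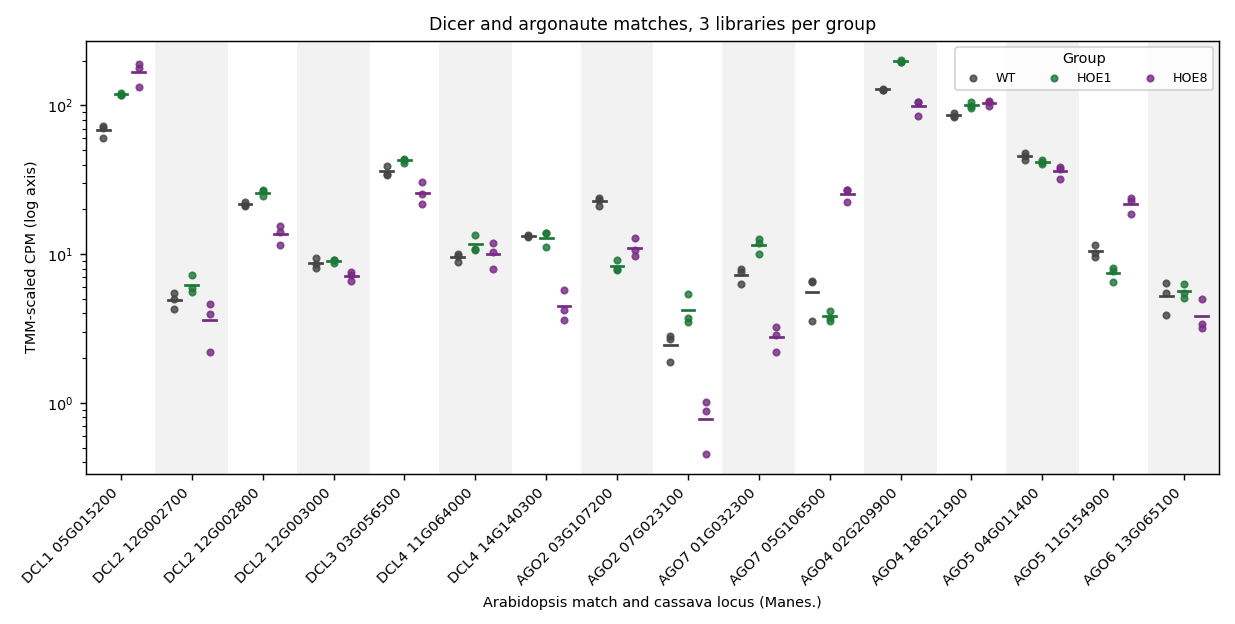
TMM-scaled CPM on a log axis (y) for the tested dicer and argonaute matches (x, Arabidopsis match and cassava locus), with 1 point per library and a bar at the mean of each group. The DCL1 match rises from WT to HOE1 to HOE8, the DCL4 match 14G140300 drops to 3.63 to 5.72 CPM in HOE8, and the 2 AGO7 matches move in opposite directions.

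Argonautes hold the small RNA and find its target. Of 9 tested members, 4 were higher and 3 lower in HOE1, where 31.8% of all genes tested were higher and 32.9% lower. In HOE8, where 33.7% were higher and 38.2% lower, 3 were higher and 5 lower, also without library 1. The members with the highest CPM in the class were AGO4 matches, of the methylation pathway, below the AGO1 match that the rule did not take and that is given further on. Manes.02G209900 (chromosome 2, 21539167 to 21546642) measured 128, 129 and 128 CPM in WT, 198 ± 2.5 (SD, n = 3) in HOE1, and 84.6, 106 and 106 in HOE8. It rose by 0.63 ± 0.07 in HOE1 (adjusted p = 2e-06) and fell by 0.37 ± 0.07 in HOE8 (adjusted p = 0.00029), and the lines differed by -1 ± 0.07 (adjusted p = 7.1e-09). Without HOE8 library 1 the HOE8 value was -0.27 (adjusted p = 1.4e-06). Manes.18G121900 (chromosome 18, 12079824 to 12086338) measured 84 to 88.7 CPM in WT, 95.7 to 106 in HOE1 and 98.5 to 108 in HOE8. It rose by 0.23 ± 0.06 in HOE1 (adjusted p = 0.0041) and 0.28 ± 0.06 in HOE8 (adjusted p = 0.00072).

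AGO7 binds the microRNA that starts trans-acting small RNAs, which pattern leaves. Its 2 matches moved apart. Manes.05G106500 (chromosome 5, 9259350 to 9263939) measured 6.58, 3.56 and 6.46 CPM in WT, 3.74, 4.13 and 3.56 in HOE1, with 22.5, 26.9 and 27 in HOE8. WT and HOE1 overlapped, and HOE8 lay far above them. It was 4.59-fold higher in HOE8 than in WT (log2 fold change 2.2 ± 0.18, adjusted p = 5.2e-08) and 6.67-fold higher than in HOE1 (2.74 ± 0.19, adjusted p = 1.1e-08). Its HOE1 log2 fold change of -0.54 ± 0.20 (adjusted p = 0.031) lost its call without WT library 1 or 3 or HOE1 library 1 or 3 (adjusted p up to 0.13).

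The second AGO7 match, Manes.01G032300 (chromosome 1, 4893739 to 4897863), measured 6.31, 7.63 and 7.92 CPM in WT, 9.96, 11.8 and 12.7 in HOE1, with 2.19, 3.26 and 2.86 in HOE8. The 3 groups did not overlap. It rose by 0.66 ± 0.14 in HOE1 (adjusted p = 0.00094) and fell by 1.40 ± 0.17 in HOE8 (adjusted p = 2.2e-06), and the lines differed by -2.05 ± 0.17 (adjusted p = 2.1e-08). In summed FPKM of the 2 matches, Manes.05G106500 made up 50.5, 31.3 and 44.4% in the WT libraries, 26.9, 25.5 and 21.5% in HOE1, and 90.9, 89 and 90.2% in HOE8.

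AGO2, an antiviral argonaute, had 2 matches as well. Manes.03G107200 (chromosome 3, 18496486 to 18505174) measured 23.3, 23.9 and 21.2 CPM in WT, 7.98, 9.12 and 7.82 in HOE1, with 9.76, 10.6 and 12.9 in HOE8. It fell by 1.45 ± 0.12 in HOE1 (adjusted p = 2.3e-08), the largest fall among members in that line, and by 1.04 ± 0.11 in HOE8 (adjusted p = 6e-07; log2 fold change -0.95 without HOE8 library 1). Manes.07G023100 (chromosome 7, 2129478 to 2133589) was sparse, at 2.81, 1.88 and 2.7 CPM in WT, 3.74, 3.48 and 5.43 in HOE1, with 0.454, 1.01 and 0.88 in HOE8. It fell by 1.65 ± 0.32 in HOE8 (adjusted p = 0.00024). Its HOE1 log2 fold change of 0.78 ± 0.24 (adjusted p = 0.0093) lost its call without WT library 2 (adjusted p = 0.051) or HOE1 library 3 (adjusted p = 0.073).

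The AGO5 matches went opposite ways in HOE8. Manes.11G154900 (chromosome 11, 26505936 to 26512340) measured 10.2, 9.51 and 11.6 CPM in WT, 6.5, 8.07 and 7.7 in HOE1, with 18.7, 22.8 and 23.8 in HOE8. It fell by 0.49 ± 0.13 in HOE1 (adjusted p = 0.0037) and rose by 1.06 ± 0.12 in HOE8 (adjusted p = 9.3e-07). Manes.04G011400 was the more abundant, at 43.1 to 48.2 CPM in WT, 40.2 to 42.9 in HOE1 and 32.1 to 38.8 in HOE8. It fell by 0.34 ± 0.08 in HOE8 (adjusted p = 0.00094). The AGO6 match Manes.13G065100, at 3.88 to 6.38 CPM in WT, was not called against WT in either line (adjusted p = 0.64 in HOE1 and 0.073 in HOE8), although the HOE8 value was called without WT library 2 (adjusted p = 0.016) or HOE8 library 3 (adjusted p = 0.013). Another AGO4 match, Manes.02G038100, had 1 read in the 9 libraries.

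**Figure D5:**
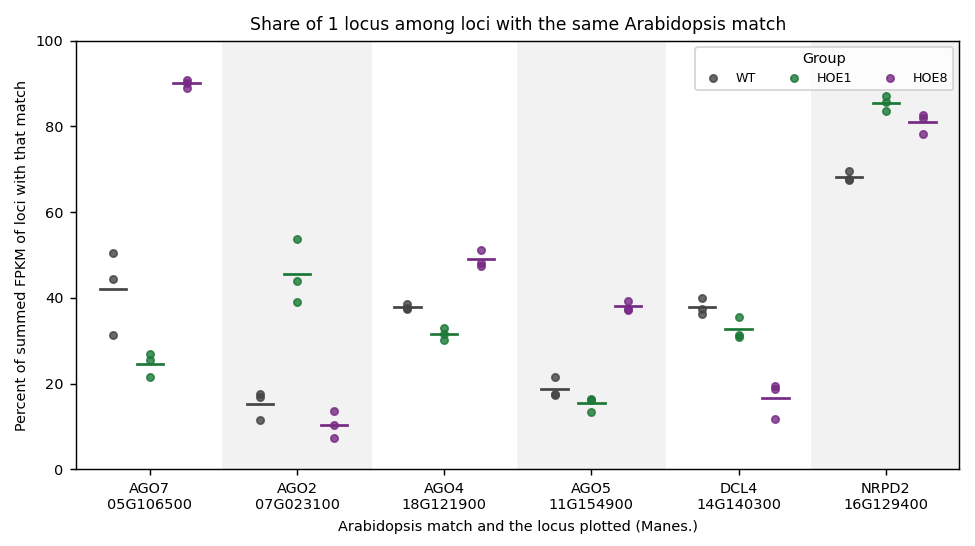
Share of 1 locus in the summed FPKM of all members with the same Arabidopsis match (y axis, percent), for 6 loci (x axis) chosen after their values were seen, with 1 point per library and a bar at the group mean. The AGO7 match 05G106500 makes up 89 to 90.9% of its pair in HOE8 and 21.5 to 50.5% elsewhere, and the AGO2 match 07G023100 makes up 39 to 53.8% in HOE1 and 7.23 to 17.6% elsewhere.

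Other members are proteins with silencing in their description. DMS3, which helps polymerase V onto chromatin, had the matches Manes.10G072000, at 47.3 to 53.3 CPM in WT, and Manes.17G027400, at 6.87 to 7.57. The second rose in both lines, to 10.2 to 12.2 CPM in HOE1 (log2 fold change 0.62 ± 0.11, adjusted p = 0.00015) and 12.6 to 13.2 in HOE8 (0.85 ± 0.11, adjusted p = 4.4e-06). The first rose by 0.24 ± 0.06 in HOE8 (adjusted p = 0.0035). Another DMS3 match, Manes.01G245700, had 2 reads in the 9 libraries and was not tested. Manes.17G044200, a match of SDE5, which acts with RDR6, rose by 0.25 ± 0.07 in HOE1 (adjusted p = 0.0035) and was lower in HOE8 than in HOE1 (-0.34 ± 0.07, adjusted p = 0.00031). Manes.03G112100, a sparse SDE5 match at 1.17 to 1.62 CPM in WT, was lower in HOE1 (-0.95 ± 0.31, adjusted p = 0.015), a call lost without WT library 2 (adjusted p = 0.066) or HOE1 library 2 (adjusted p = 0.056). ASF1b is a histone chaperone, and its main match Manes.01G113900 fell by 0.69 ± 0.09 in HOE1 (adjusted p = 4.7e-06) and by 0.63 ± 0.09 in HOE8 (adjusted p = 9.4e-06). Its second match Manes.02G072500, at 0.892 to 1.55 CPM in WT, fell by 1.26 ± 0.34 in HOE1 (adjusted p = 0.0038).

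The words of the rule do not occur in the descriptions of several other genes of the same pathways. A list of Arabidopsis loci outside the rule matched 71 genes, of which 61 were tested. Of these, 28 were higher and 17 lower in HOE1, where 31.8% and 32.9% of all genes tested were, and 20 were higher and 16 lower in HOE8, where 33.7% and 38.2% were. The median log2 fold changes were 0.24 in HOE1 and 0.13 in HOE8, against 0 and -0.05 for all genes tested. Between the lines, 13 were higher and 19 lower in HOE8, against 32.9% and 34% of all genes tested. MET1 had the matches Manes.13G119400, at 10.9 to 12.8 CPM in WT, and Manes.13G155300, at 8.22 to 11.7. The first was not called against WT in either line (log2 fold change 0.22, adjusted p = 0.11 in HOE1, and -0.10, adjusted p = 0.45 in HOE8). The second rose by 0.57 (adjusted p = 0.0026) in HOE1 and 0.53 (adjusted p = 0.0036) in HOE8. The chromatin remodeller DDM1, needed for methylation of heterochromatin, had the match Manes.01G134600, which went from 1.6 ± 0.35 CPM in WT to 3.26 ± 0.23 in HOE1 and 6.45 ± 1.1 in HOE8 (log2 fold change 2.00 ± 0.20, adjusted p = 1.8e-07). Its other match, Manes.02G092800, was not called (adjusted p = 0.41 in HOE1 and 0.73 in HOE8).

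VIM1, a reader of hemimethylated DNA that works with MET1, had 2 matches that went opposite ways. Manes.14G168600 went from 0.548 ± 0.087 CPM in WT to 1.56 ± 0.19 in HOE1 and 7.58 ± 1.6 in HOE8. In WT it lay below the cut of the filter on low counts, which it passed through the transgenic lines. Manes.08G101100 measured 16.3, 20.1 and 17.6 CPM in WT, 14, 14.2 and 11.1 in HOE1, with 5.29, 7.21 and 6.45 in HOE8, and fell by 0.46 (adjusted p = 0.0054) in HOE1 and by 1.51 (adjusted p = 7.3e-08) in HOE8. CLSY2, a remodeller that brings in polymerase IV, had the match Manes.10G007800, which rose from 8.68 ± 0.27 CPM to 27.7 ± 4.5 in HOE8 (log2 fold change 1.67 ± 0.12, adjusted p = 5.4e-09). S-adenosylhomocysteine hydrolase clears the by-product of methylation, and its match Manes.03G143900 fell from 234 ± 4.9 to 99.8 ± 4.5 CPM in HOE1 (-1.23 ± 0.06, adjusted p = 4.9e-11). DRD1, a remodeller of the polymerase V pathway, had the match Manes.11G082500, which went from 15.3 ± 0.058 CPM in WT to 7.62 ± 0.83 in HOE1 and 6.02 ± 0.85 in HOE8 (log2 fold change -1.01 ± 0.12, adjusted p = 2.4e-06 in HOE1, and -1.34 ± 0.12, adjusted p = 8.1e-08 in HOE8). The RNA helicase SDE3 had 4 matches. The most abundant by CPM, Manes.07G109900, rose from 35 ± 1.1 CPM in WT to 58.3 ± 3.8 in HOE1 (0.74 ± 0.10, adjusted p = 2.9e-05) and 83.3, 117 and 105 in the HOE8 libraries (1.54 ± 0.10, adjusted p = 1.1e-08). Manes.S107500, at 9.92 ± 0.091 CPM in WT, fell by 1.07 ± 0.23 in HOE1 (adjusted p = 0.0017) and was not called in HOE8 (0.33, adjusted p = 0.19). Manes.03G175900 fell by 0.28 in HOE1 (adjusted p = 0.01) and by 0.24 in HOE8 (adjusted p = 0.02), and Manes.07G109600 was not called in either line (adjusted p = 0.73 and 0.56). The CLSY2 and DRD1 matches, the falling VIM1 match and the SDE3 matches other than Manes.S107500 were named after their values were seen. SGS3, a partner of RDR6, had the match Manes.04G095100, at 0.215 ± 0.052 CPM in WT, 1.18 ± 0.16 in HOE1 and 0.2 ± 0.081 in HOE8. In WT and HOE8 this gene lay near 3 reads per library, and it passed the filter on low counts only through HOE1. Its log2 fold change in HOE1 (2.43 ± 0.41) is therefore given as a description only. The sparse Manes.05G127400, a match of IDM2, which aids demethylation, fell by 1.2 ± 0.49 in HOE1 (adjusted p = 0.041) and by 1.72 ± 0.54 in HOE8 (adjusted p = 0.0099).

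DEMETER, a demethylase related to ROS1, had 4 matches outside the rule. The most abundant, Manes.10G055200, measured 83.7, 75.9 and 84.9 CPM in WT, 125, 120 and 125 in HOE1, with 32.9, 50.6 and 55.7 in HOE8. It rose by 0.59 (adjusted p = 0.016) in HOE1 and fell by 0.81 (adjusted p = 0.0033) in HOE8, with HOE8 library 1 again the lowest, at a gene length of 6373 bases. Manes.17G117800 rose in both lines, by 0.83 (adjusted p = 7.5e-06) and 0.96 (adjusted p = 1.1e-06). The sparse Manes.07G091800, at 1.21 ± 0.17 CPM in WT, 2.23 ± 1 in HOE1 and 4.03 ± 0.48 in HOE8, rose by 0.89 (adjusted p = 0.017) and 1.73 (adjusted p = 4.2e-05). AGO1, the main argonaute of microRNAs, had the match Manes.02G219700, at 190, 174 and 175 CPM in WT, 224, 225 and 226 in HOE1, with 183, 227 and 238 in HOE8. It rose by 0.33 ± 0.08 in HOE1 (adjusted p = 0.0021) and 0.27 ± 0.08 in HOE8 (adjusted p = 0.0069). Of the 3 AGO10 matches, Manes.15G033500 was the most abundant by mean CPM over all libraries. It rose by 0.51 ± 0.11 in HOE1 (adjusted p = 0.00092) and 0.30 ± 0.11 in HOE8 (adjusted p = 0.025). Manes.03G172500 rose in both lines (1.12 ± 0.12 in HOE1 and 1.15 ± 0.12 in HOE8). Manes.14G127700 rose in HOE1 (0.84 ± 0.11, adjusted p = 5.2e-06) and fell in HOE8 (-0.53 ± 0.11, adjusted p = 0.00067). AGO10 is known for its role in the shoot meristem. The match of HEN1, which caps small RNAs with a methyl group, was Manes.06G068000, higher in HOE1 (0.48 ± 0.09, adjusted p = 0.00025) and not called in HOE8 (0.04, adjusted p = 0.69).

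Copies were common. The 64 members had 41 different Arabidopsis matches, and 17 of these were shared by 40 members. No cassava sequence was used here, so whether copies of a gene shared reads was not tested.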

How the data were processed

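Leaf RNA of 9 cassava libraries was analysed from 1 table of raw counts and FPKM values, both deposited by the authors for every gene. The submitters' processing notes name HISAT2 2.0.4 and StringTie 1.3.0. Build, counting settings and strand use: not given in the sources used here. Gene lengths were derived from the ratio of the deposited counts to the FPKM values, which gave 1 length per gene across libraries.

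Testing of the deposited counts used edgeR 4.0.16 with limma 3.58.1 in R 4.3.3: filterByExpr at a minimum count of 10 (23434 genes kept, 9599 removed), TMM scaling, 1 robust quasi-likelihood fit over all 9 libraries, two-sided tests, and Benjamini-Hochberg adjustment over all genes tested at 0.05. Standard errors are the log2 fold change over the square root of F. The common biological coefficient of variation was 12.1%. In a simulation of the HOE1 and WT contrast (23092 genes), calls were made for 59.7% of 67 genes changed 1.5-fold, 98.5% of 67 changed 2-fold and 100% of 66 changed 4-fold, with 12 false calls. The changed genes were drawn only from those above a set mean level, and all genes were given the same spread. Far fewer genes were changed than were called in the data. These rates therefore do not cover sparse members. A count of 3 reads is 0.183 to 0.226 CPM. Alternatives were DESeq2 1.42.0, its size factors, no filter, a replicate block, glmTreat, 2-group fits and each library left out. Replicate libraries differed beyond counting noise (median chi-square per gene 0.644 to 1.91, against 0.455). Members, lists and tests were chosen with earlier results of these data known. By the rule for named genes, each class gives its most abundant member, up to 2 with the largest called change per comparison, and fixed core enzymes. Of 33033 identifiers, 0 matched the RefSeq gene table, so no sequence is shown.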

Additional observations from a re-analysis of the deposited data

Results flagged for a closer look

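For 8 members the lines were called in opposite directions against WT. They also differed from each other, so that the difference itself passed the edgeR test. Calls were common over all genes tested, at 64.7% in HOE1 against WT, 71.9% in HOE8 against WT and 66.8% between the lines. The share of all genes meeting the same rule was not counted, so the 8 are not read as particular to the members. The log2 difference of HOE8 from HOE1 was 2.74 for the AGO7 match Manes.05G106500 and -2.05 for the AGO7 match Manes.01G032300. It was -2.42 for the AGO2 match Manes.07G023100, 1.55 for the AGO5 match Manes.11G154900 and -1 for the AGO4 match Manes.02G209900. It was -0.72 for the DCL3 match Manes.03G056500, -0.92 for the DCL2 match Manes.12G002800 and -1.40 for the polymerase I match Manes.04G156600. Without HOE8 library 1 these differences were 2.82, -1.91, -2.15, 1.65, -0.90, -0.61, -0.81 and -1.31 in the same order. The calls of Manes.05G106500, Manes.07G023100, Manes.03G056500 and Manes.12G002800 in HOE1 against WT each ended when some single libraries were left out.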

How the results depend on the processing

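No member changed sign in a setting where it was called, or where it was called with the settings used above. Requiring a change beyond 1.2-fold (glmTreat) left 14 members higher in HOE8 against WT, and 12 higher and 11 lower in HOE8 against HOE1. Removing a trend on gene length from each library, a choice made after the data were seen, brought the median log2 fold change in HOE1 against WT to 0.12. The other counts stayed within 1.5 times, and the other medians within the spread between libraries. With each library left out, HOE1 against WT had 21 to 30 members higher and 11 to 14 lower, with medians of 0.19 to 0.23. HOE8 against WT had 20 to 24 higher and 16 to 22 lower, with medians of 0.02 to 0.09, and HOE8 against HOE1 had 16 to 19 higher and 15 to 21 lower, with medians of -0.08 to 0. Same-numbered libraries did not deviate together (correlations of -0.04 to 0.03), and 4 of 9 libraries correlated best with their own number. With a replicate block, 26 members were higher and 12 lower in HOE1, 23 and 21 in HOE8, and 18 and 20 between the lines. Size factors of DESeq2 moved the median of all genes by at most 0.033. Depth limits members near 1 CPM.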
